A study of Homo sapiens with 6 samples.

Results

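The subject is a set of 10 genes described as induced through the RAS-RAF-MEK-ERK cascade, examined in Huh7 cells, an established human hepatoma line. They are the dual-specificity phosphatases DUSP4, DUSP5 and DUSP6, the Sprouty proteins SPRY2 and SPRY4, the Sprouty-related proteins SPRED1 and SPRED2, the ETS-family transcription factors ETV4 and ETV5, and the immediate-early factor EGR1. They were chosen by symbol, as ERK-induced feedback inhibitors and transcription factors, and each matched 1 of 25202 rows of the count table. Earlier results of these data were known when the set was chosen. Gene counts came from 6 RNA-seq libraries in 2 groups of 3, and these data hold no measure of ERK activity. The control cells carried a negative-control guide (sgNC) and are labelled WT, and the other cells carried a guide against HNRNPA2B1 (sghnRNPA2B1) and are labelled KO, here called the knockout. Both groups were the same line in plain culture, with no stimulus, inhibitor or serum change in the labels. The sample names do not say whether the libraries of a group all carried the same guide. The labels do not say whether the knockout was 1 clone or a pool, nor whether each library had a culture of its own. The p-values therefore measure library-to-library variation only, possibly of technical origin.

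Growth factor receptors activate RAS, which switches on RAF, MEK and finally the ERK kinases. Active ERK induces genes that act back on the cascade. DUSP phosphatases remove the activating phosphates from ERK and related kinases, and Sprouty and SPRED proteins act higher up, on the route from receptors to RAS and RAF. ETV4 and ETV5 belong with ETV1 to the PEA3 group of ETS factors. Their genes, like DUSP6, are held down by the repressor CIC until ERK relieves it. EGR1 is turned on within minutes of a growth stimulus through serum response elements, where SRF and its ETS partners bind at CArG boxes. In hepatoma cells, FGF19 acting on FGFR4 with its co-receptor beta-klotho (KLB) is a well-known input.

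The targeted gene was lower in every knockout library. HNRNPA2B1 averaged 1214 ± 221 CPM (counts scaled to library size with TMM factors; SD, n = 3) in the controls and 229 ± 8.30 CPM in the knockout. Library totals ran from 32517757 to 38870244 counts, and mitochondrial transcripts took 2.01% to 4.7%. AFP, a fetal liver protein that hepatoma cells keep making, was abundant, at 7270 ± 822 CPM in the controls and 4187 ± 203 CPM in the knockout (SD, n = 3 each). Of 10 hepatocyte markers 9 fell, SERPINA1, AHSG, APOA1 and HNF4A among them. Markers of other cells were scarce, apart from LYZ and PECAM1. The 7 fibroblast markers together reached 1.86 to 3.04 CPM in the controls and 8.86 to 26.1 CPM in the knockout, the highest in knockout replicate 2, with DCN and THY1 at 0 counts in all controls. LUM and PDGFRB were higher in each knockout library than in any control. COL3A1 was called higher with overlapping groups, and its log2 change of 3.81 was 1.48 without knockout replicate 2 (edgeR adjusted p = 0.434). That call was also lost without control replicate 1 (3.15, edgeR adjusted p = 0.133) and without control replicate 3 (3.24, edgeR adjusted p = 0.114). PTPRC, CD3E and HBB, which define blood cells, were at 0 counts in the controls and summed to 25, 7 and 9 counts over the knockout. LYZ, at 311 ± 52.5 and 86.1 ± 7.48 CPM, and PECAM1, at 59.9 ± 8.87 and 33.2 ± 2.40 CPM (SD, n = 3 each), made up most of the immune and endothelial marker sums and fell. The part of these differences in the results was not tested. Without knockout replicate 2, 6 of the 10 feedback genes were called lower instead of 7.

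Promoter sequence from RefSeq (GRCh38.p14) was searched for DUSP6, SPRY2, SPRY4, SPRED1, SPRED2 and EGR1, 9 annotated starts in all. The stretches below are shown because they hold the matches found to motifs of CIC and of SRF, factors known to act on DUSP6 and EGR1. Capitals mark, in DUSP6, an octamer that CIC recognises, read on the opposite strand, and in EGR1 the CArG boxes. Both are written 5′ to 3′ on the gene's strand and end at the base before the transcription start: DUSP6 at chr12:89352502-89352561 on the minus strand, and EGR1 at chr5:138465369-138465478 on the plus strand.
DUSP6: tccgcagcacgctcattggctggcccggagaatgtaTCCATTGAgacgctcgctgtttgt
EGR1: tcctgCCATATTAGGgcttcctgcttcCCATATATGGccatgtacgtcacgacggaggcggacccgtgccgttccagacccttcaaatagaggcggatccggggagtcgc

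The search covered the 250 bases before each start on both strands. The CIC octamers searched were TGAATGAA, TGAATGGA, TCAATGAA and TCAATGGA, and the match in DUSP6 lay 24 to 17 bases before its start. Such an octamer stood in 3.18% of 35116 promoters of that length. EGR1 held 2 CArG boxes, at 105 to 96 and 83 to 74 bases before the start, against 1.16% of promoters with at least 1. Each of these 2 motifs was found in 1 of the 9 windows, so those of SPRED1 and SPRED2, which also fell, and of SPRY2 and SPRY4 held neither. DUSP4, DUSP5, ETV4 and ETV5 were not searched. Any entry on the chromosome of DUSP4 was set aside before the search, so whether DUSP4 had promoter sequence is not reported here. No match to an ETS site (CCGGAAGT or CAGGAAGT, in 5.89% of promoters), an AP-1 site (TGACTCA or TGAGTCA, 4.2%) or a cyclic AMP response element (TGACGTCA, 1.65%) was found in the 9 windows. The matches did not overlap each other. They describe the letters only, and binding was not measured.

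All 10 genes had enough counts to be tested. In the knockout 7 fell and none rose, by edgeR's quasi-likelihood test over all 16331 rows tested at an adjusted p below 0.05. The fallers were DUSP6, EGR1, ETV5, SPRED2, ETV4, DUSP5 and SPRED1, in order of size. Changes were common in these cells, with 40.1% of tested rows called, 19% lower and 21.1% higher. Among the 10256 rows within the abundance range of the set, 25% were called lower. The median log2 fold change of the 10 genes was −0.65, against 0.05 over all rows tested and −0.06 over rows of like abundance. As the set was chosen with earlier results of these data known, these comparisons do not make its falls an independent finding. The 3 genes that did not pass were DUSP4, SPRY2 and SPRY4. Each of the 7 fallers had all its knockout libraries below all its controls, a position found in 24.8% of tested rows. DUSP4 had all of them above, as had 29.6% of rows, and groups that did not overlap in either direction made up 54.3%. In bulk RNA, less RNA per cell and fewer cells with that RNA cannot be told apart.

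**Figure D1:**
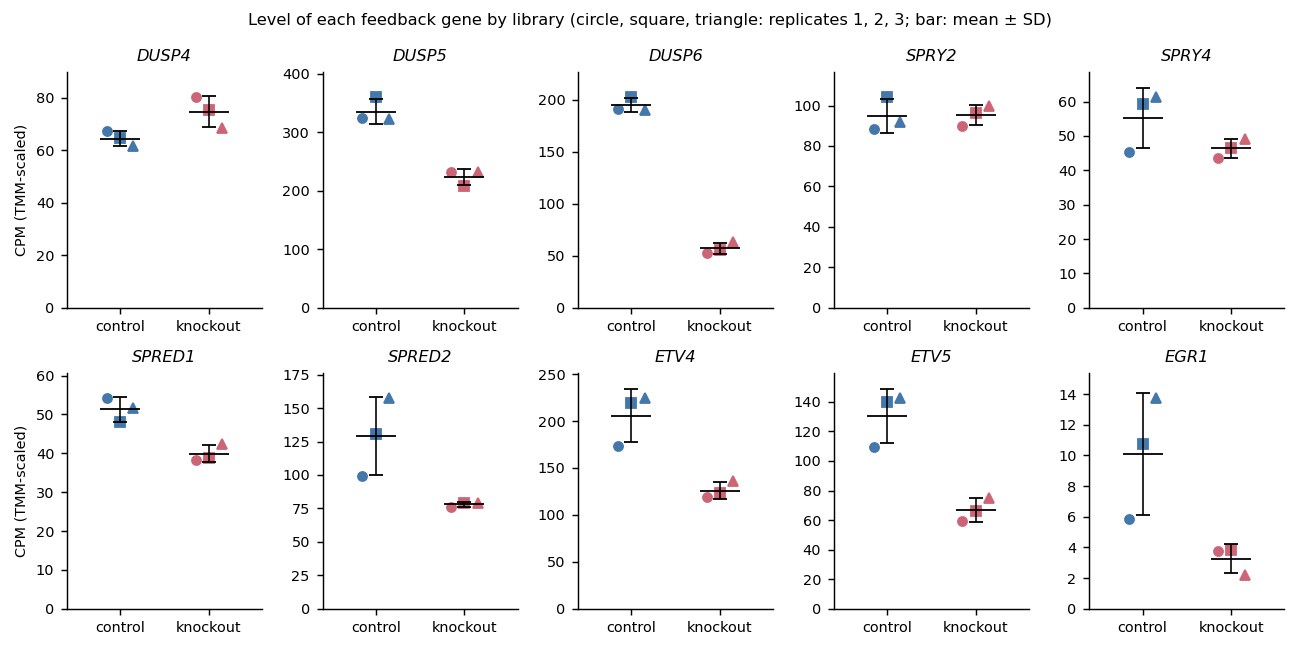
CPM of each of the 10 genes in the 3 control and 3 knockout libraries, on axes that start at 0; bars are means and SDs over 3 libraries. The groups lie far apart for DUSP6 (191 to 203 against 53.2 to 63.3 CPM), are separate for DUSP5, SPRED1, SPRED2, ETV4, ETV5 and EGR1, and overlap for SPRY2 and SPRY4.

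Of the phosphatases, DUSP6 (ENSG00000139318), which resides in the cytoplasm and is selective for ERK, changed the most. It had 191, 203 and 191 CPM in control replicates 1, 2 and 3 and 53.2, 55.6 and 63.3 CPM in the knockout replicates. The lowest control was 3.01 times the highest knockout library, and the controls differed among themselves by no more than 1.06-fold. The log2 fold change was −1.76 ± 0.11 (SE), 3.40-fold lower, with an edgeR adjusted p of 4.61e-06. Of all rows tested, 122 were called lower with a change at least as large. In GENCODE its exons overlap AC024909.2 on the opposite strand, which has no row in the table.

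DUSP5 (ENSG00000138166), a nuclear phosphatase that binds and inactivates ERK, was the most abundant of the 10 genes. Control libraries held 324, 360 and 322 CPM and knockout libraries 231, 208 and 232 CPM. The groups did not overlap, and the log2 fold change was −0.58 ± 0.10 (SE, edgeR adjusted p = 0.0016). DUSP4 (ENSG00000120875), its nuclear relative, went the other way in value without passing the test. Levels of 67.2, 64.5 and 61.5 CPM in the controls stood against 80.2, 75.3 and 68.4 CPM in the knockout. Every knockout library was above every control by a narrow margin. The log2 difference was 0.21 ± 0.11 (SE, edgeR adjusted p = 0.138), with a 95% interval from −0.02 to 0.45. DUSP4 was called higher under 2 of 16 other settings, both of them other scalings, at 0.32 and 0.40 on the log2 scale.

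Ratios of raw counts within a library do not depend on scaling between libraries. DUSP6 had 2.85, 3.14 and 3.10 counts per DUSP4 count in the controls and 0.663, 0.738 and 0.926 in the knockout. These are ratios of counts, not of levels per length. Against DUSP5 the DUSP6 ratio was 0.581 ± 0.0163 in the controls and 0.257 ± 0.0235 in the knockout (SD, n = 3 each). Both ratios separated the groups completely, 3.94-fold and 2.27-fold lower in the knockout. For each, the exact permutation test, 2-sided, gave p = 0.1, the smallest that 3 against 3 libraries allow, and 0.12 after Benjamini-Hochberg adjustment over the 6 ratios examined.

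The Sprouty genes of the set did not pass. SPRY2 (ENSG00000136158), an adaptor that restrains receptor signalling to RAS, had 88.6, 104 and 91.6 CPM in the controls and 90.1, 96.4 and 99.9 CPM in the knockout. The groups overlapped throughout. Its log2 difference of 0.01 ± 0.11 (SE) had a 95% interval from −0.23 to 0.25. SPRY4 (ENSG00000187678), which acts at a similar step, had 45.2, 59.3 and 61.3 CPM in the controls and 43.7, 46.6 and 49.2 CPM in the knockout. Control replicate 1 was the low control and lay within the knockout range. The log2 difference was −0.25 ± 0.13 (SE, edgeR adjusted p = 0.16), and −0.41 without control replicate 1, where it passed (adjusted p = 0.0135).

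SPRED genes fell. SPRED2 (ENSG00000198369), a membrane protein that keeps RAF from being activated, had 99.3, 131 and 157 CPM in the controls and 75.7, 79.4 and 79 CPM in the knockout. The controls spread 1.59-fold and the knockout libraries far less, and the groups did not overlap. The change was −0.73 ± 0.15 on the log2 scale (SE, edgeR adjusted p = 0.00442). SPRED1 (ENSG00000166068), which brings the RAS inhibitor neurofibromin to the membrane, held 54.2, 47.9 and 51.7 CPM against 38.4, 38.8 and 42.4 CPM. Its log2 change of −0.36 ± 0.11 (SE, edgeR adjusted p = 0.0214) was the smallest of the 7. The call on SPRED1 was lost when knockout replicate 1 was left out (−0.34, edgeR adjusted p = 0.112) or knockout replicate 2 (−0.35, 0.103), and under 2 other scalings. Their ratio, SPRED2 to SPRED1, was 1.83, 2.73 and 3.04 in the controls and 1.97, 2.05 and 1.86 in the knockout, so the groups overlapped (exact permutation p = 0.4, 2-sided).

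Both PEA3 factors of the set fell. ETV5 (ENSG00000244405) had 110, 140 and 142 CPM in the controls and 59.3, 66.2 and 75 CPM in the knockout, a log2 change of −0.97 ± 0.14 (SE, edgeR adjusted p = 0.000487). ETV4 (ENSG00000175832) had 173, 219 and 224 CPM in the controls and 119, 123 and 136 CPM in the knockout, with a change of −0.71 ± 0.12 (SE, edgeR adjusted p = 0.00161). Control replicate 1 was the lowest control and knockout replicate 3 the highest knockout library for both, with a clear gap between the groups. ETV1, the other PEA3 factor, fell as well, from 33.6 ± 5.65 to 10.6 ± 1.56 CPM (SD, n = 3 each), a log2 change of −1.67. Summed over ETV1, ETV4 and ETV5, PEA3 transcripts came to 370 ± 45.6 CPM in the controls and 203 ± 17.9 CPM in the knockout, 1.82-fold lower. ETV5 counts per ETV4 count were nearly constant over the controls, at 0.634 ± 0.00236, and 0.529 ± 0.0296 in the knockout (SD, n = 3 each; exact permutation p = 0.1, 2-sided, the smallest possible). Against SPRY2, which did not pass, ETV5 had ratios of 1.24, 1.34 and 1.55 in the controls and 0.658, 0.687 and 0.751 in the knockout, 1.97-fold lower with the same p. In the GENCODE annotation, exons of ETV4 overlap DHX8 on the opposite strand. DHX8 had 3235 to 4542 counts in the controls and 2833 to 3319 in the knockout. Whether counting used strand is not stated, so reads of the 2 genes cannot be told apart there. ETV5 shares exon sequence with DGKG on its own strand, which had at most 7 counts in any library.

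EGR1 (ENSG00000120738), a zinc finger factor of the immediate-early response, was the rarest of the 10. Raw counts were 216, 328 and 413 in the controls and 150, 135 and 78 in the knockout, or 5.82, 10.7 and 13.7 CPM against 3.78, 3.85 and 2.18 CPM. The controls ranged over 2.36-fold and the knockout libraries over 1.76-fold, the widest spreads in the set. The lowest control still lay above the highest knockout library. The log2 change was −1.62 ± 0.33 (SE, edgeR adjusted p = 0.0033), with a 95% interval from −2.35 to −0.90. Its relatives EGR2, EGR3 and EGR4 had too few counts to test, with at most 20 counts summed over a group.

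The 7 calls were compared under 16 other settings, which changed the scaling, the filter, the tool, the threshold or the libraries. DUSP5, DUSP6, SPRED2, ETV4, ETV5 and EGR1 were called lower in all 16, and SPRED1 in 10.

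**Figure D2:**
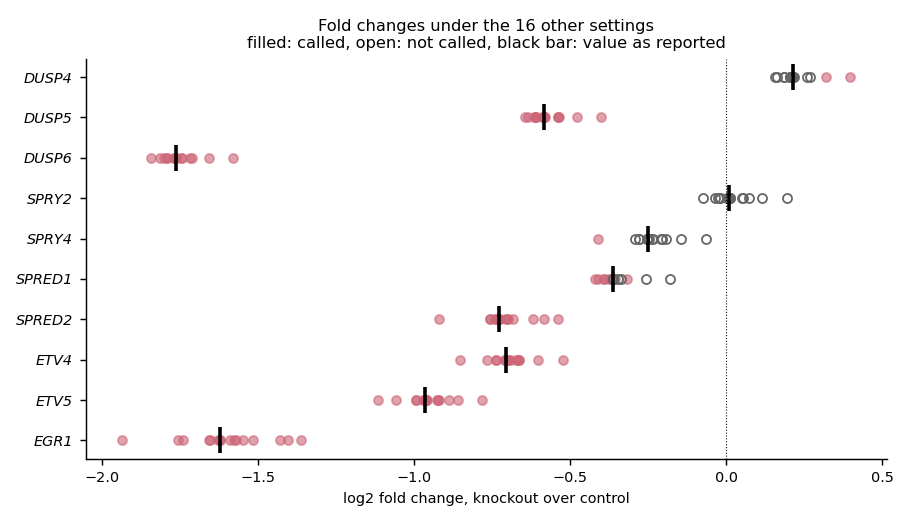
Log2 fold change of each of the 10 genes under 16 other settings (points, filled where called in either direction) beside the value reported (black bar). DUSP6 stays between −1.84 and −1.58 and EGR1 between −1.94 and −1.36, SPRY2 lies on both sides of 0, and DUSP4 is called higher at the 2 points farthest right.

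The controls were not alike in this set. Replicate 1 was the lowest control for SPRY2, SPRY4, SPRED2, ETV4, ETV5 and EGR1, while for DUSP4 and SPRED1 it was the highest. The coefficient of variation over the controls ran from 3.46% for DUSP6 and 4.37% for DUSP4 to 22.5% for SPRED2 and 39.6% for EGR1. In the knockout it lay between 2.57% for SPRED2 and 28.8% for EGR1. Control replicate 1 also had the lowest mitochondrial share, 2.01%, and control replicate 3 the highest, 4.7%. Their part in the spread was not tested.

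**Figure D3:**
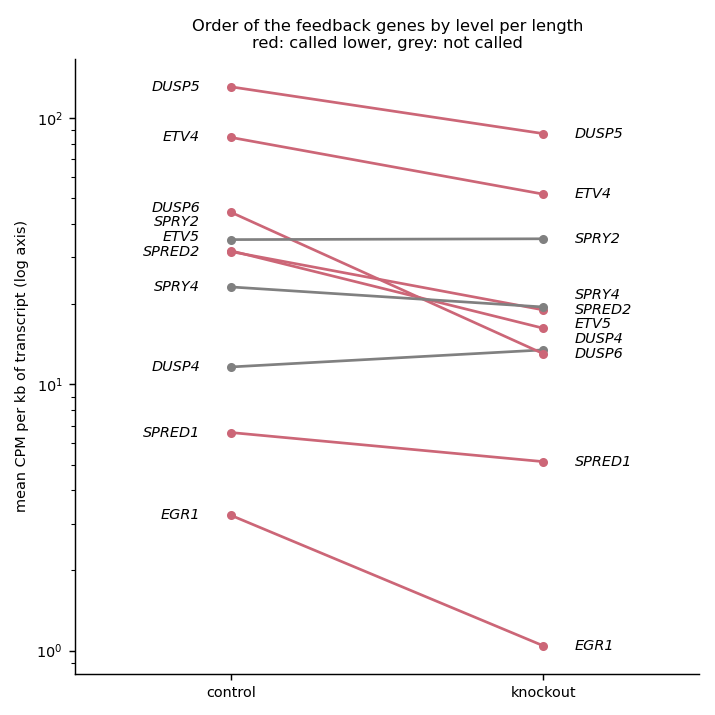
Mean CPM per kilobase of transcript, on a log axis, for the 10 genes in each group, joined by a line per gene. DUSP5 and ETV4 lead and SPRED1 and EGR1 come last in both groups, while DUSP6 drops from 44.3 to 13 CPM per kb, where its libraries overlap those of DUSP4.

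Levels of different genes were compared per kilobase of the longest principal transcript in GENCODE release 29. In the controls DUSP5 came first at 131 ± 8.35 CPM per kb, followed by ETV4 at 84.7 ± 11.6 and DUSP6 at 44.3 ± 1.53 (SD, n = 3). SPRY2 at 35, ETV5 at 31.7, SPRED2 at 31.5 and SPRY4 at 23.2 CPM per kb came next, and each overlapped its neighbour in this run of 4. DUSP4 followed at 11.6, SPRED1 at 6.59 and EGR1 at 3.22 CPM per kb. In the knockout DUSP5 at 87.5 and ETV4 at 51.9 CPM per kb kept the lead. SPRY2 came next at 35.2 CPM per kb. SPRY4 and SPRED2 overlapped at 19.5 and 19 CPM per kb, as did ETV5 at 16.3 with DUSP4 at 13.5, and DUSP4 with DUSP6 at 13 CPM per kb. SPRED1 at 5.13 and EGR1 at 1.04 CPM per kb remained last. DUSP6 had rank 3 by mean in the controls and rank 8 in the knockout, the latter not separate from DUSP4.

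The wider DUSP family was split. Of 10 other DUSP genes, 9 were tested, 4 rose and 3 fell. The cytoplasmic phosphatases selective for ERK, DUSP7 and DUSP9, fell like DUSP6. DUSP7 went from 53.9 ± 15.6 to 21.5 ± 2.44 CPM (SD, n = 3 each; log2 change −1.33) and DUSP9 from 212 ± 25.3 to 136 ± 3.07 CPM (−0.65). Together DUSP6, DUSP7 and DUSP9 dropped 2.15-fold, from 461 ± 33.1 to 214 ± 10.5 CPM. DUSP1, a nuclear phosphatase of broad range and itself an immediate-early gene, rose from 22.8 ± 3.39 to 56.8 ± 4.34 CPM (log2 change 1.31). Of the phosphatases that prefer JNK and p38, DUSP8 and DUSP10 rose by 0.61 and 0.59 on the log2 scale, and DUSP16 had a log2 difference of −0.06 that did not pass. Both calls were lost in fits that left out 1 library, for a reason that was not tested. That on DUSP8 was lost in 5 of the 6 fits that left out a library (0.40 to 0.66), all but the one lacking control replicate 3, and that on DUSP10 in 3 (0.48 to 0.52), those lacking control replicates 1 or 2 or knockout replicate 1. Among atypical members, DUSP22 rose by 0.98, DUSP14 changed by −0.69 and DUSP3 had −0.09 on the log2 scale, not called. DUSP2 held too few counts to test.

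**Figure D4:**
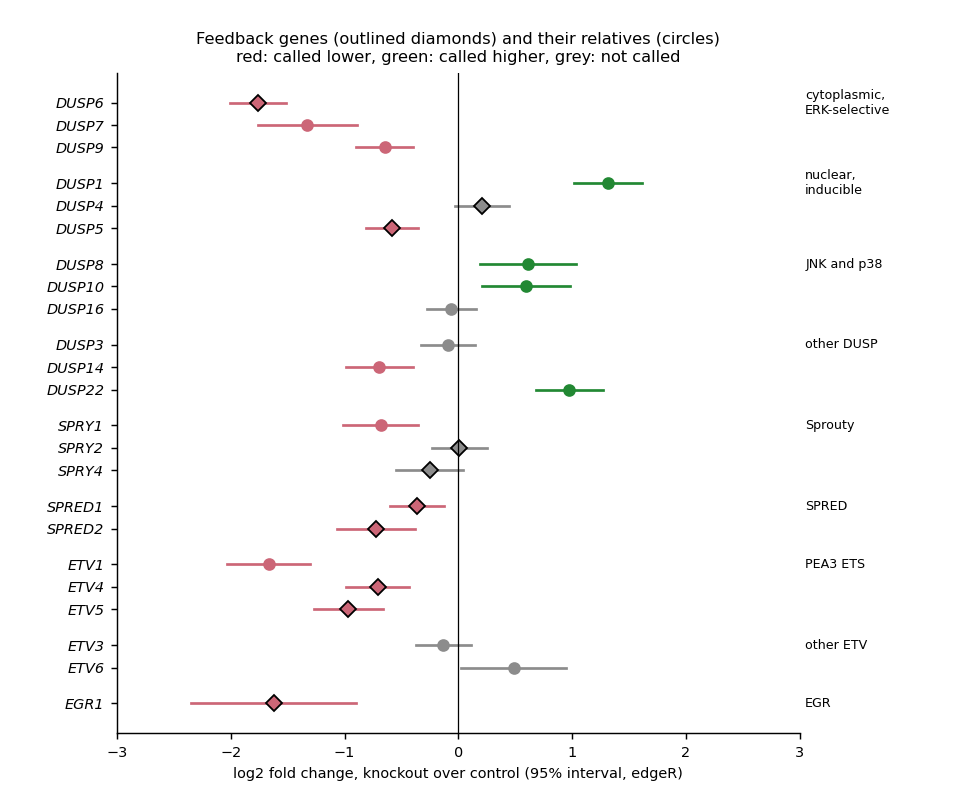
Log2 fold change of the feedback genes (outlined diamonds) and of relatives in the same families (circles), with 95% intervals from edgeR, grouped by class. All cytoplasmic ERK phosphatases and all PEA3 factors shown lie left of 0 and are called, whereas DUSP1 (1.31), DUSP8, DUSP10 and DUSP22 lie right of it.

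Other feedback regulators and inhibitors of the cascade moved both ways, with 5 rising and 6 falling of 20 tested and a median log2 fold change of 0.03. SPRY1 fell from 28.6 ± 2.08 to 17.8 ± 3.10 CPM (log2 change −0.68, edgeR adjusted p = 0.00509), and its difference from SPRY2 and SPRY4 was not tested. SPRY3 and SPRED3 were too rare to say more than that they did not pass, with log2 differences of 0.23 and 0.01. LRIG1, a negative regulator of ERBB receptors, changed by −1.13, and the cytokine signalling inhibitor SOCS1 by −1.33. SOCS3, of the same family, rose by 2.36, RASAL2, a RAS GTPase-activating protein, by 0.87 and the EGFR inhibitor ERRFI1 by 0.55 on the log2 scale. IL17RD, an inhibitor of FGF signalling named here after its values were seen, rose by 1.27.

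Of 23 genes of the cascade itself, 3 rose, 4 fell and 16 did not pass. The scaffold KSR1 rose from 12.8 ± 1.44 to 24.8 ± 0.843 CPM (SD, n = 3 each). The exchange factor SOS2 rose by 0.68, a call lost without control replicate 1 (0.69) and without knockout replicates 1 (0.62) or 2 (0.68). MAPK3, an ERK kinase, went from 41.7 ± 11 to 24.3 ± 4.81 CPM (log2 change −0.78, edgeR adjusted p = 0.0131), although control replicate 1, at 29 CPM, lay below knockout replicate 3, at 29.9 CPM. The ERK-activated kinase RPS6KA3 changed by −0.42. Some of these calls were lost under other scalings or when 1 library was left out, for reasons that were not tested. With upper-quartile factors the cascade held 4 rises and 1 fall, and scaled by library size 6 rises and 1 fall, RPS6KA3 being lost in both (−0.31 and −0.24). Without knockout replicates 1, 2 and 3 in turn the cascade held 0, 0 and 1 called falls, and without control replicate 3 it held 7 falls and 5 rises. MAPK3 was then at −0.69 without knockout replicate 1 and −0.70 without replicate 2, and at −0.68 without control replicate 2, where it was also lost. RPS6KA3 stayed between −0.44 and −0.41 in the fits without a knockout library. The genes HRAS, NRAS, RRAS2, ARAF, BRAF, MAP2K1 and MAP2K2 did not pass, with log2 differences from −0.30 for ARAF to 0.05 for BRAF.

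Of 26 ligands and receptors tested, 11 rose and 9 fell. All 4 FGF receptors fell. Summed FGFR1 to FGFR4 transcripts went from 821 ± 124 to 447 ± 23.6 CPM (SD, n = 3 each), 1.84-fold lower. FGFR4 had 296, 319 and 238 CPM in the controls and 143, 162 and 164 CPM in the knockout. KLB changed by −0.79 and FGF19 by −0.48 on the log2 scale. FGFR1, FGFR2 and FGFR3 changed by −0.91, −1.56 and −0.86. PDGFRA, a platelet-derived growth factor receptor, fell from 24.8 ± 2.67 to 4.05 ± 0.605 CPM, ERBB3 changed by −0.66 and IGF1R by −0.45. The calls on FGF19 and IGF1R were lost without knockout replicate 3 (−0.44 and −0.38) and when scaled by library size (−0.29 and −0.26). Several ligands rose. AREG, a ligand of EGFR, went from 27.2 ± 0.104 to 103 ± 8.41 CPM (log2 change 1.92), EGF rose by 0.95, FGF2 by 1.36, PDGFB by 2.95, PDGFA by 0.76 and PDGFC by 0.47. PDGFC was lost without knockout replicate 1 (0.48) or 3 (0.43). FGF21, BTC, PDGFRB and AXL rose from low control means of 0.25, 1.43, 0.947 and 0.0597 CPM, and the insulin receptor INSR rose by 0.54. The call on BTC was lost in 5 of the 6 fits that left out a library (0.67 to 1.06), all but the one lacking control replicate 3. That on AXL was lost in 5 (2.18 to 3.17), and without knockout replicate 3 it had too few counts to be fitted. EGFR, ERBB2, MET, HBEGF, EREG and NRG1 did not pass, with EGFR at 330 ± 35.6 and 362 ± 22.2 CPM. TGFA and HGF had too few counts to test.

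Beyond the set, transcripts that ERK is known to induce went both ways, 7 rising and 7 falling of 23 tested, with a median log2 fold change of −0.08. ETV1, ZFP36 (−1.47), which encodes an RNA-destabilising protein, and the stress-response gene IER3 (−0.91) fell. The AP-1 factor FOSL2 rose from 27.6 ± 3.13 to 75.5 ± 3.00 CPM (log2 change 1.45) and the uridine phosphorylase UPP1 by 0.71. Named after their values were seen, MYC and the cell cycle gene CCND1 changed by −0.74 and −0.44. Of 14 ETS factors tested, 1 rose, ELF3 (0.77), and 3 fell, ETV1, the ERK-regulated repressor ERF (−0.64) and the SRF partner ELK1 (−0.47, but −0.42 without knockout replicate 2 and −0.29 scaled by library size, where the call was lost). ETV3 and ETV6 did not pass, with log2 differences of −0.13 and 0.49. In the circuit of SRF, 8 genes were tested. SRF changed by −0.37 and its coactivator MRTFA rose by 0.47, while the targets CCN1 and ATF3 rose by 1.69 and 1.65. The call on SRF was lost when any 1 of the knockout libraries was left out (−0.40 to −0.36), with upper-quartile factors (−0.27) and when scaled by library size (−0.19). That on MRTFA was lost without any 1 knockout library and without control replicate 1 (0.33 to 0.49). Of 7 genes for turnover or repression of PEA3 factors, the ubiquitin ligase COP1 rose by 0.43 and its partners DDB1 and CUL4A changed by −0.45 and −0.28, the latter not called without any 1 of the knockout libraries (−0.29 to −0.27). Scaled by library size neither DDB1 (−0.27) nor CUL4A (−0.10) was called, and with upper-quartile factors CUL4A was lost (−0.18).

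**Figure D5:**
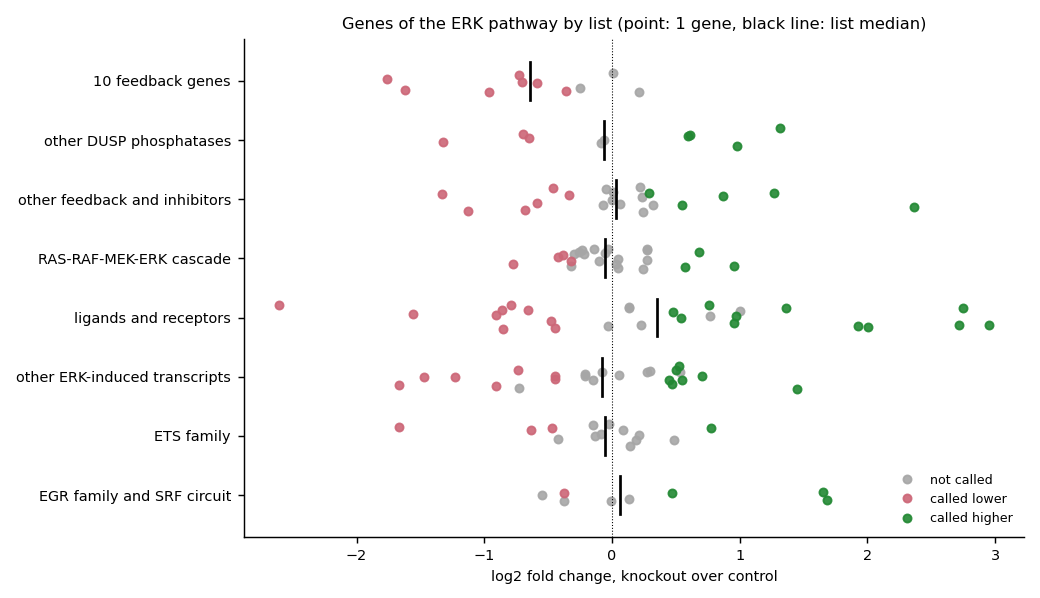
Log2 fold change of each tested gene (points) in the set and in 7 lists of related genes, coloured by call, with the list median as a black line. The 10 feedback genes have a median of −0.65 and no called rise, and the other lists hold genes on both sides of 0.

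The genes whose profile over the 6 libraries was nearest to that of DUSP6, the called member with the smallest p, were SLC47A1, FADS2, AGXT2, HOXD1 and C8A. Likeness was the Euclidean distance between log2 CPM values centred on their mean, over 10022 genes that reached a mean log2 CPM of 3, and ran from 0.13 for SLC47A1 to 0.24 for C8A. Their log2 fold changes lay between −1.84 and −1.59, and none is a member of the set.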

How the data were processed

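Total RNA went through an RNeasy kit and a SMARTER mRNA-Seq kit, per the labels' protocols. The authors deposited raw read counts per gene. The hg19 genome build is named, with no role, in the submitters' processing notes; for the aligner, counter, annotation and strand setting, nothing is given in the sources used here. Sample descriptions gave the names of the 6 count columns.

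The table holds 19974 Ensembl IDs, of which 19883 matched a symbol, and 5228 added loci that stayed in the fit. Counts were fitted in R 4.3.3 with edgeR 4.0.16 (filterByExpr, TMM, quasi-likelihood test, group as the single term), with Benjamini-Hochberg adjustment over all 16331 rows tested and a threshold of 0.05. The biological coefficient of variation was 17.6%. CPM were computed here from the deposited counts. SEs derive from the fitted change and its F statistic, and intervals are 95%. The code was tested on simulated data. Libraries of a group differed by far more than sampling noise (chi-square per degree of freedom of at least 9.72), so all 6 were counted.

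The members and lists were chosen with earlier results of these data known. Named genes were the 10 members, up to 5 called genes with the smallest p per list, all relatives in the same families and all ligands, receptors, RAS, RAF, MEK and ERK genes tested; exceptions are stated, and some cascade genes are not reported here. Alternatives were DESeq2 1.42.0, its size factors within edgeR, scaling by upper quartile or by library size, other filters, voom of limma 3.58.1, a replicate block, a threshold of 0.01, no added loci, and each library left out. Promoters came from RefSeq, and transcript lengths from GENCODE release 29, whose build differs from hg19. Figures used matplotlib 3.10.9.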

Additional observations from a re-analysis of the deposited data

How the results depend on the processing

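The number of the 10 feedback genes called lower was 6 to 8. With scaling by upper quartile 1 was called higher (DUSP4), and with library size alone 1, otherwise 0. Under those scalings the median over all rows was 0.16 and 0.24, against 0.05, and rises made up 64.4% and 72.1% of calls, against 52.7%. With the replicate number as a block, 6 members were called lower, SPRED1 being lost, as were the calls on SRF, CUL4A and AXL, and 3126 rows rose and 2613 fell. Same-numbered libraries had correlations of 0.0424, −0.0708 and −0.0727, and those of unlike number −0.0372 to 0.106. Libraries of equal number were thus no more alike than the others. Whether the numbers mark pairs is not in the labels and cannot be told from these values, as a shared preparation need not leave a correlation.

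Over all rows, 3448 rose and 3100 fell. At an adjusted p below 0.01 the numbers were 2054 and 1930, and with library size alone 1878 fell. Leaving out 1 library gave 2047 to 3439 falls. Without knockout replicate 1 there were 2047 falls. In the pathway lists together 34 fell, but 22 with library size alone and 22 at 0.01. A stricter threshold lowers such counts by construction, and for the other settings the cause was not tested.

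Signs changed for genes that did not pass. By upper quartile and by library size the log2 values were 0.046 and 0.12 for DUSP16, 0.016 and 0.094 for DUSP3, 0.0502 and 0.12 for MAP2K1 and 0.0801 and 0.16 for MET. Library size alone gave 0.0528 for ETV3 and 0.0401 for HRAS, and leaving out the added loci 0.016 for MET. SPRY2 stood at −0.019 with DESeq2's size factors and −0.019 with DESeq2, and SPRED3 at −0.022, −0.023 and, with the block, −0.0022. Leaving out 1 library gave −0.0759 to 0.16 for BRAF, −0.196 to 0.0402 for MAP2K1, −0.153 to 0.0447 for MET, −0.305 to 0.244 for SPRED3, −0.0736 to 0.0724 for SPRY2 and −0.107 to 1.02 for SPRY3.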
